A study of Mus musculus with 24 samples.

Results

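The immunoglobulin V segments are the gene pieces from which the antigen-binding end of an antibody is built. The 117 V segments described here were chosen from gene rows whose symbol starts with Ighv (heavy chain), Igkv (kappa light chain) or Iglv (lambda light chain). They had the gene type IG_V_gene and a mean deposited log2 value of 4 or more over 12 libraries. Of 45792 gene rows, 216 were V segments of that type. Of these, 121 reached the level, 95 did not, and 10 of the 95 were listed at 0 in every library. Ighv11-2, Igkv14-126, Ighv12-3 and Igkv4-91 reached the level and were left out by name, and they are not analysed here. The 117 comprised 55 of 113 Ighv rows in 12 families, 59 of 100 Igkv rows in 15 families, and all 3 Iglv rows, each a family of its own. Because the level itself chose them, levels are given as a description with no test. Segments at the edge differed little in value: Igkv4-70 (4.03), Ighv3-1 (4.03) and Ighv5-2 (4.05) lay just inside, and Igkv8-16 (3.98), Igkv4-74 (3.98) and Ighv1-42 (3.97) just outside.

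The libraries came from livers of female C57BL/6 mice on a methionine- and choline-deficient (MCD) diet for 2 weeks, which all 4 groups shared. This diet is used as a model of fatty liver inflammation. Liposomes labelled with the membrane dye DiI, either empty or carrying the plant compound curcumin, were given intravenously, and cells were collected 24 hours later. CD11c+ MHC class II+ cells, labelled as liver dendritic cells, were sorted into DiI-positive cells, which carried dye, and DiI-negative cells. There were 3 libraries each of empty DiI-positive, empty DiI-negative, curcumin DiI-positive and curcumin DiI-negative cells. No group was without diet or without liposomes. The labels do not say that each library of a group is from its own mouse, and p-values then speak only of library-to-library spread, part of which may be technical. CD11c and MHC class II do not define dendritic cells alone. The defining B cell genes Cd79a, Cd79b and Ms4a1 were present in every library, with a mean of their log2 values from 12.15 to 14.23. B cells carry MHC class II, but the gate also required CD11c, and how B cell RNA entered the libraries was not tested.

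In a developing B cell, recombination joins a heavy chain V segment to a D and a J segment, and a light chain V segment to a J segment. Each mature B cell therefore transcribes mainly a single productive heavy and a single productive light chain V segment, and a B cell population uses many. Plasma cells transcribe their rearranged genes at far higher levels than resting B cells, so a small number of such cells can dominate the V reads of a bulk sample. The heavy chain constant genes Ighm, Ighd, Ighg2b and Igha give the antibody class, and Igkc and Iglc1 to Iglc3 are the light chain constant genes. In bulk samples, fewer cells of a type and less RNA per cell cannot be told apart.

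The V exon carries most of each segment's coding sequence, and 8 of these are printed because the results below turn on them. They were read from the GENCODE M21 transcripts (build GRCm38), 5′ to 3′ on the coding strand, with at most 300 bases each. The first 6 were chosen with their values known, and others that shared a peak library, such as Ighv1-72 and Igkv3-12, are not printed. These 6 are heavy and light segments, each highest in the same library as 1 of the other chain, shown as the last bases of the exon. Their capitals mark the codons for tyrosine, then tyrosine or phenylalanine, then cysteine, which close the last framework region just before the third complementarity-determining region. Ighv1-9 (chr12:114583569-114583868, minus strand) and Igkv6-15 (chr6:70406469-70406766, minus strand) were highest in curcumin DiI-positive replicate 1.
Ighv1-9: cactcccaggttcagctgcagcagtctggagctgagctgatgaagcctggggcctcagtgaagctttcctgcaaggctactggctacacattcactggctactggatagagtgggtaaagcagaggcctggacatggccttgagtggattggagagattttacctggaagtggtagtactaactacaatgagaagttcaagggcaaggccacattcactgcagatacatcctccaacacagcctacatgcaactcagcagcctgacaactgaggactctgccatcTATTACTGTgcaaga
Igkv6-15: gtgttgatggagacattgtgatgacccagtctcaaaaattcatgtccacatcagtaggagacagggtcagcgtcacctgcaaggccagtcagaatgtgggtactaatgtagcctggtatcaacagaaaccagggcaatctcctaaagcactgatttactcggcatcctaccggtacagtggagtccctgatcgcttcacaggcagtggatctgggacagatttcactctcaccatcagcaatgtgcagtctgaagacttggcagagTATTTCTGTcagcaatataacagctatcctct
Ighv14-3 (chr12:114059845-114060144, minus strand) and Igkv4-63 (chr6:69377944-69378243, minus strand) were highest in curcumin DiI-positive replicate 2.
Ighv14-3: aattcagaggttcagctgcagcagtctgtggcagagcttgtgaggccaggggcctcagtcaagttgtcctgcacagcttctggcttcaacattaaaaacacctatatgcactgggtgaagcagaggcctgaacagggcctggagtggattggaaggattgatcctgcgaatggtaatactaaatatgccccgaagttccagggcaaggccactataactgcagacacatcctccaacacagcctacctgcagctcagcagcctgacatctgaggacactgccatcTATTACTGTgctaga
Igkv4-63: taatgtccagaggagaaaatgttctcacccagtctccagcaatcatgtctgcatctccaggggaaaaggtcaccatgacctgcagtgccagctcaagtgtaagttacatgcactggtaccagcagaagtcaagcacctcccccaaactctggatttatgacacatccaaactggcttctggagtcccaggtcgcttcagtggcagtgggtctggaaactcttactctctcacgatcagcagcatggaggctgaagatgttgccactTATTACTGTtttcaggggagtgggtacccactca
Ighv7-1 (chr12:113896408-113896707, minus strand) and Igkv15-103 (chr6:68437628-68437925, plus strand) were highest in empty DiI-positive replicate 1.
Ighv7-1: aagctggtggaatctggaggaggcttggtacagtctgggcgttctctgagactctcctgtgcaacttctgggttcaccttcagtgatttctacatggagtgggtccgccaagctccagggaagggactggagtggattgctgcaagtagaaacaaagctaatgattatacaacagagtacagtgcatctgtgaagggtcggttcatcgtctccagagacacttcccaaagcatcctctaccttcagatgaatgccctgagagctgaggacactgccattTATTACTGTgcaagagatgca
Igkv15-103: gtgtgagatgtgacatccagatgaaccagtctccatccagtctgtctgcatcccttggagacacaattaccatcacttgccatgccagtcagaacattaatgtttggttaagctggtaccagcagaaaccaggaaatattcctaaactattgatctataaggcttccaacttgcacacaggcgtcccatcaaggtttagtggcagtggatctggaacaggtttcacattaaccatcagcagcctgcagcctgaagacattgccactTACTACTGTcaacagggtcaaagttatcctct
The codons (TAC or TAT, then TAC or TAT or TTC or TTT, then TGC or TGT, searched on the coding strand) lay in the last 60 bases of the V exon in 114 of the 117 segments. Over all 216 V segment rows the share was 95.8%.

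The other pair is Iglv1 (chr16:19085022-19085321, minus strand) and Iglv2 (chr16:19260406-19260705, minus strand), shown as the first bases of the exon. Their capitals mark the 9 bases at which the exons, each of 305 bases, differ.
Iglv1: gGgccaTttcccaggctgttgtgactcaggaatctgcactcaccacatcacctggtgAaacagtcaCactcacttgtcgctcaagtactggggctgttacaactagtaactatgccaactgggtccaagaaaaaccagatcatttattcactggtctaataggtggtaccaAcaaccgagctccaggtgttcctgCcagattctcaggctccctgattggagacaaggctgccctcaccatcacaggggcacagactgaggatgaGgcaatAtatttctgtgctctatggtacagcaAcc
Iglv2: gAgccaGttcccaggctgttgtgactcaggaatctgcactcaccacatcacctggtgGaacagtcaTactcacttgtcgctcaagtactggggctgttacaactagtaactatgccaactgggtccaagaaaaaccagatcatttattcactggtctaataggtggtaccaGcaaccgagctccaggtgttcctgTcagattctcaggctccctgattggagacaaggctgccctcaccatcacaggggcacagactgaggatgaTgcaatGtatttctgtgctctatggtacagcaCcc
Iglv3 was only 55.9% identical to Iglv1. Reads that fall between the marked bases match Iglv1 and Iglv2 alike, and the sources used here do not say how the authors' counting treated such reads. The same limit touches other segments. Of the 117 V exons, 27 had another V gene at 97% identity or more, none had an identical one, and the median identity to the nearest other V gene of the chain was 95.6%. Ighv1-72 was 99.0% identical to Ighv1-62-3, with 3 differences. Of the 6 segments printed first, Ighv14-3 was 96.1% identical to Ighv14-1 and Igkv6-15 95.3% identical to Igkv6-13. Ighv1-9 was 90.2%, Igkv4-63 92.4%, Ighv7-1 89.3% and Igkv15-103 78.6% identical to the nearest other gene.

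Values below are the authors' log2 values on a shrunken scale, on which differences of low genes are understated. Sums, shares, family means and level ranges use these values without regard to gene length. Single segments are ranked by level only after subtracting log2 of the exon length in kilobases. On that per-length scale the highest kappa segment was Igkv6-15 (10.83), followed by Igkv6-23 (9.56), Igkv8-30 (9.16), Igkv8-21 (9.15) and Igkv8-27 (9.04). The lambda segments Iglv1 (10.61), Iglv3 (10.36) and Iglv2 (9.45) stood in the same range. Heavy segments were lower, led by Ighv3-6 (8.81), Ighv9-3 (8.40), Ighv1-64 (8.05), Ighv1-9 (7.91) and Ighv1-26 (7.82).

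The V segments were higher in DiI-positive than in DiI-negative cells. Averaged over both liposomes, all 117 log2 differences were positive, where 51.1% of all 14227 genes tested were, and their median was 0.26 against 0.005 for all genes. By limma, 48 of the 117 segments (41.0%) rose at a Benjamini-Hochberg adjusted p under 0.05 over all genes, against 5.54% of all genes, and none fell, against 6.56%. Unadjusted, 88 (75.2%) were higher at p under 0.05, against 12.7% of all genes. The 48 rises ran from 0.15 to 1.20 on the log2 scale, 5 of them at 1 or more. Ighv3-1 (4.11 in DiI-positive and 3.96 in DiI-negative cells) and Igkv4-70 (4.06 and 3.99) met the level of 4 only through their DiI-positive values and had to be higher there. Without this pair, 47 of 115 segments rose, by 0.16 or more, and all 115 differences were positive. In 24 segments (15 heavy, 7 kappa and 2 lambda) all 6 DiI-positive libraries lay above all 6 DiI-negative libraries, which held for 2.52% of all genes. The reverse order held for 3.52% of all genes and for no segment. Among the 24 was Ighv3-1, which had to be higher in DiI-positive cells. The count of rises depended on single libraries: it was 31 without empty DiI-positive replicate 2, 25 and 26 on omitting empty DiI-negative replicate 1 or 2, and 27 on omitting curcumin DiI-positive replicate 2. Omitting curcumin DiI-negative replicate 1 or 3 gave 29, and omitting curcumin DiI-positive replicate 3 gave 76. The share of all genes that rose moved along, from 3.68% without empty DiI-negative replicate 1 to 7.23% without curcumin DiI-positive replicate 3. Called in every fit with 1 library left out were 20 segments, 8 heavy, 9 kappa and the 3 lambda.

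**Figure D1:**
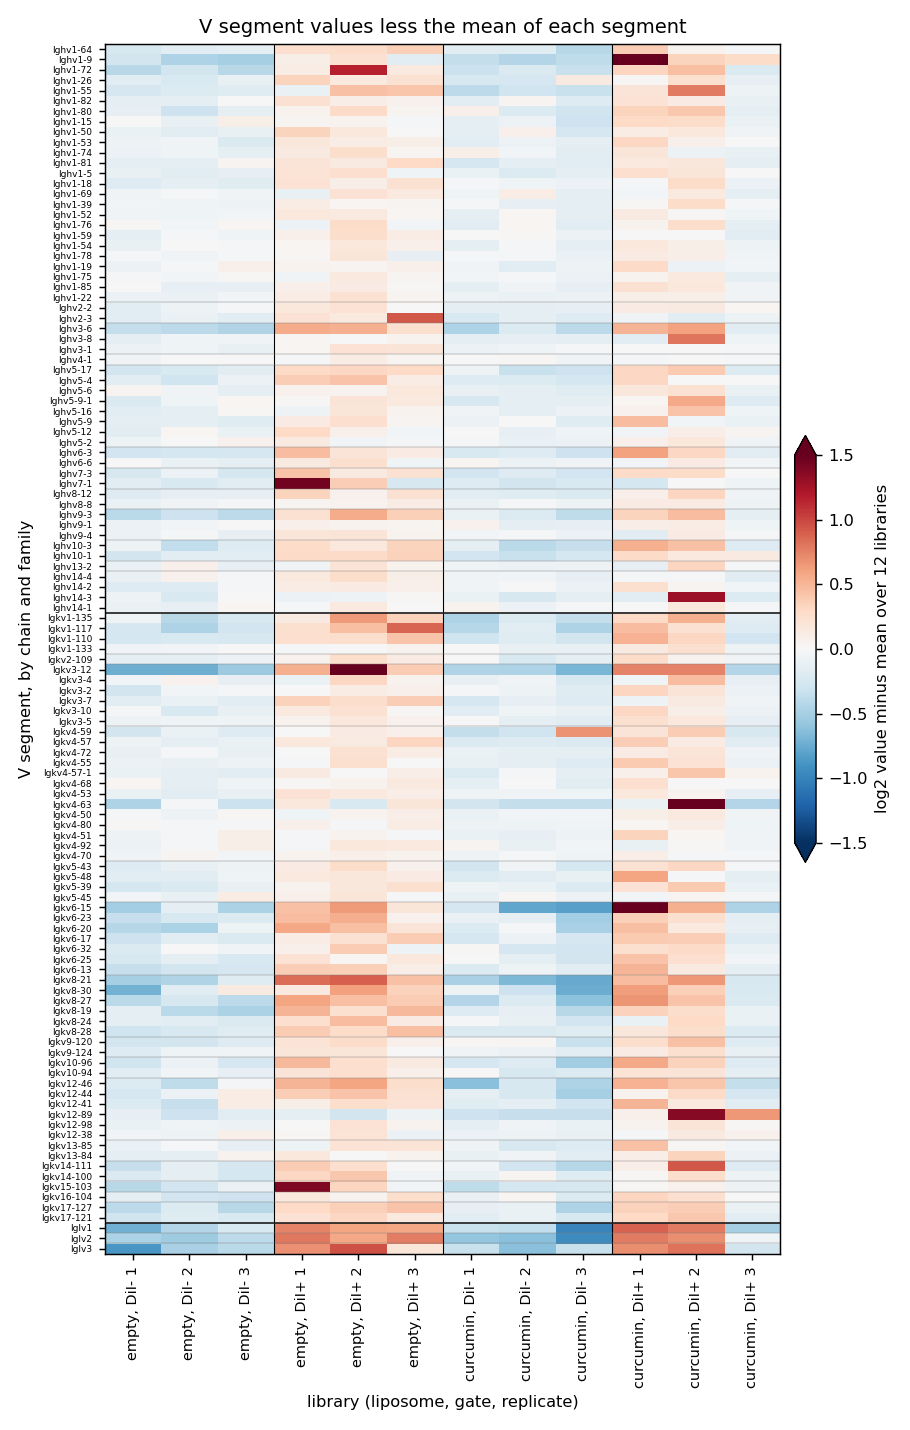
Log2 value of each of the 117 V segments (rows, by chain and family) minus its mean over 12 libraries, for each library (columns, with black lines between groups). Red marks libraries above the segment's mean and blue those below; most rows are red in the DiI-positive columns except curcumin DiI-positive replicate 3, and single dark cells mark segments high in 1 library.

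All 3 lambda segments rose. Iglv2 stood at 8.79, 8.58 and 8.76 in empty DiI-positive and at 7.52, 7.46 and 7.60 in empty DiI-negative replicates 1 to 3. After curcumin it was at 8.78, 8.70 and 7.93 in DiI-positive and 7.42, 7.37 and 7.06 in DiI-negative cells. Every DiI-positive value was above every DiI-negative value, and the difference over both liposomes was 1.19 ± 0.15 (SE; limma adjusted p = 0.0007). Iglv1, at 9.99, 9.85 and 9.83 against 8.53, 8.81 and 9.03 after empty liposomes, differed by 1.03 ± 0.23 (limma adjusted p = 0.013). In curcumin DiI-positive cells Iglv1 was at 10.13 and 10.03 in replicates 1 and 2 and at 8.75 in replicate 3, which lay within the range of the curcumin DiI-negative libraries (8.91, 8.88 and 8.26). Iglv3, also known as V lambda x, differed by 1.02 ± 0.20 (limma adjusted p = 0.0072), and its DiI-positive values (8.70 to 9.92) all exceeded its DiI-negative values (8.10 to 8.63).

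Of the 59 kappa segments 26 rose, with a median over the 59 of 0.32. Igkv3-12 had the largest difference of all 117. It stood at 7.63, 8.75 and 7.48 in empty DiI-positive cells and at 6.36, 6.37 and 6.55 in empty DiI-negative cells. After curcumin the DiI-positive values were 7.85, 7.84 and 6.66 and the DiI-negative values 6.64, 6.64 and 6.41, so that the gates did not overlap, by a narrow margin in curcumin replicate 3. The difference over both liposomes was 1.20 ± 0.25 (limma adjusted p = 0.0099). Its nearest relative Igkv3-7, 96.8% identical in the V exon, rose by 0.33 ± 0.06 (limma adjusted p = 0.0043).

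Further kappa segments of high level rose less. Igkv8-21 was at 8.59, 8.65 and 8.20 against 7.26, 7.31 and 7.58 after empty liposomes, and at 8.22, 8.41 and 7.52 against 7.27, 7.09 and 7.01 after curcumin. The values of the gates overlapped only through curcumin DiI-positive replicate 3 and empty DiI-negative replicate 3, and the difference was 1.01 ± 0.16 (limma adjusted p = 0.0023). Igkv8-27 rose by 0.77 ± 0.15 and Igkv1-117 by 0.69 ± 0.14 (limma adjusted p = 0.0065 and 0.0094). Igkv6-15, the kappa segment of highest level, was at 9.75, 9.95 and 9.49 against 8.80, 9.16 and 8.83 after empty liposomes, and at 10.93, 9.84 and 8.85 against 9.06, 8.53 and 8.50 after curcumin. Its difference of 0.99 ± 0.28 (limma adjusted p = 0.041) was called in 2 of the 12 fits with 1 library left out. Igkv8-30 (0.62 ± 0.19, limma adjusted p = 0.057) did not pass, whereas Igkv6-23 rose by 0.51 ± 0.13 (limma adjusted p = 0.025).

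Of the 55 heavy segments 19 rose, with a median over the 55 of 0.21. Ighv1-9 had the largest difference, 0.81 ± 0.21 (limma adjusted p = 0.026), and passed in 6 of the 12 fits with 1 library left out. Without curcumin DiI-positive replicate 1, where it peaked, the difference was 0.58 (limma adjusted p = 0.0032). Ighv3-6 stood at 7.85, 7.83 and 7.53 in empty DiI-positive and 6.93, 6.91 and 6.84 in empty DiI-negative cells, and at 7.81, 7.90 and 7.12 against 6.84, 7.09 and 6.90 after curcumin. All 6 DiI-positive libraries were above all 6 DiI-negative libraries, with a difference of 0.76 ± 0.14 (limma adjusted p = 0.0050). Ighv10-1 had the smallest p of the heavy segments. It was at 6.21, 6.20 and 6.27 against 5.64, 5.76 and 5.75 after empty liposomes, and at 6.21, 6.07 and 6.06 against 5.64, 5.58 and 5.66 after curcumin. The gates were thus separated in every library, and the difference was 0.50 ± 0.06 (limma adjusted p = 0.0007). Ighv9-3 rose by 0.60 ± 0.12 and Ighv1-64 by 0.43 ± 0.09 (limma adjusted p = 0.0069 and 0.011), and Ighv1-26 was at 0.29 ± 0.10 (limma adjusted p = 0.077).

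By family, the mean of the members was higher in DiI-positive than in DiI-negative cells in all 30 families after empty liposomes, and in 29 after curcumin. The exception was Ighv4, whose only member Ighv4-1 was at 4.05 ± 0.01 against 4.06 ± 0.04 (SD, n = 3). At least 1 member rose in 9 of 12 Ighv, 11 of 15 Igkv and all 3 Iglv families. The largest heavy family, Ighv1, had 8 rises among 25 segments, whose differences ran from 0.07 to 0.81. The largest kappa family, Igkv4, had 2 among 13, with a family median of 0.18 and a low mean level (5.06 ± 0.03 in empty DiI-positive cells). In Igkv6 6 of 7 rose (all but Igkv6-32) and in Igkv8 4 of 6, with family means of 7.34 ± 0.12 against 6.81 ± 0.08 and 7.66 ± 0.06 against 6.93 ± 0.07 after empty liposomes. Both Ighv10 segments rose (Ighv10-3 by 0.51 ± 0.13), as did both Igkv17 segments, Igkv17-127 (0.57 ± 0.11) and Igkv17-121 (0.40 ± 0.10).

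Other families of 1 or 2 members were mixed. Rises were called for Ighv2-2 (0.21), Ighv6-3 (0.51), Ighv7-3 (0.45), Ighv8-12 (0.33), Igkv2-109 (0.24), Igkv10-96 (0.53) and Igkv16-104 (0.34). Where the family had a second member, it was not called: Ighv2-3 was at 0.34, Ighv6-6 at 0.11, Ighv7-1 at 0.41, Ighv8-8 at 0.12 and Igkv10-94 at 0.26. Nor were Ighv13-2 (0.12), Igkv9-120 (0.35), Igkv9-124 (0.21), Igkv13-85 (0.25), Igkv13-84 (0.19), Igkv14-111 (0.50), Igkv14-100 (0.29) or Igkv15-103 (0.56). In Igkv15-103, Ighv7-1, Ighv2-3 and Igkv14-111 the highest library exceeded the second highest by 1.08, 1.08, 0.71 and 0.55 (below).

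**Figure D2:**
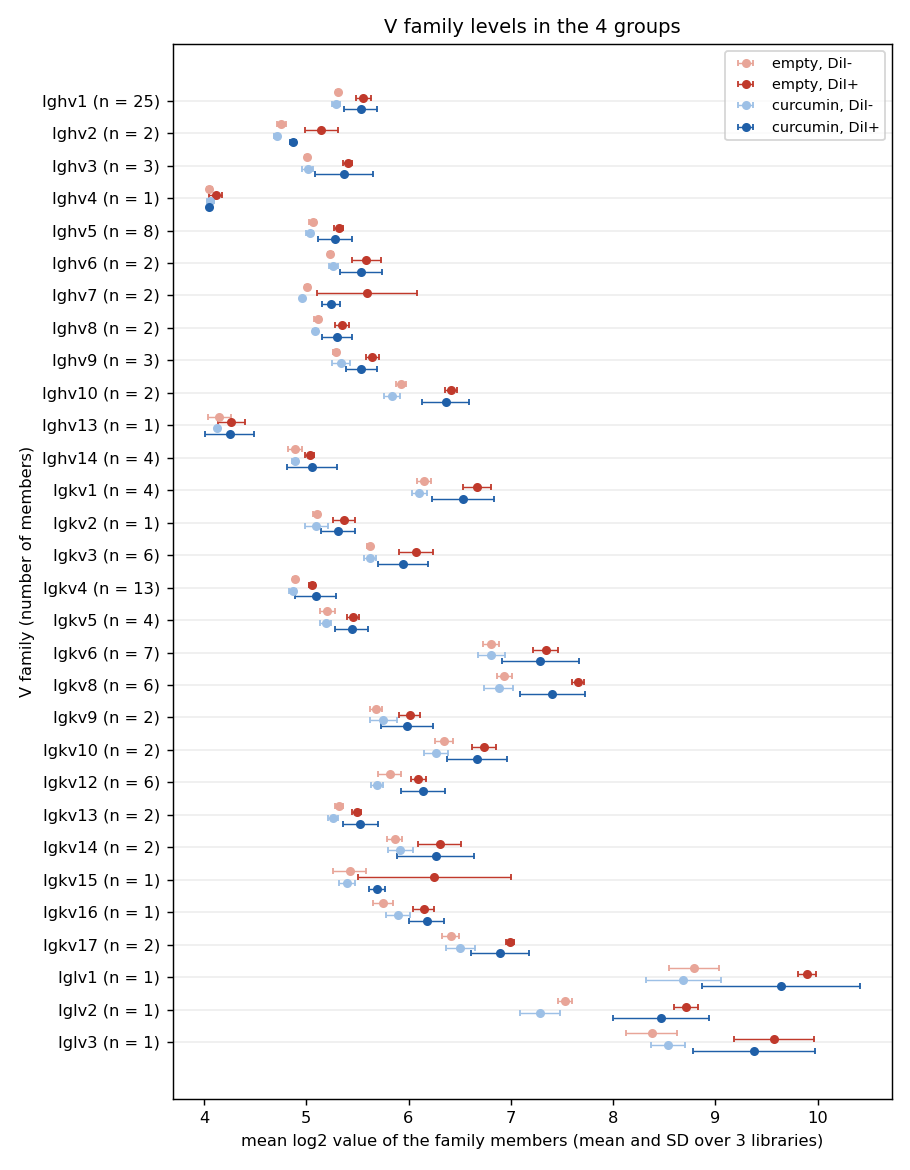
Mean log2 value of the members of each V family (rows, number of members in brackets) in the 4 groups; points are means and bars the SD over 3 libraries. DiI-positive means (dark) lie to the right of DiI-negative means (pale) in all families but Ighv4 after curcumin, with the widest gaps in Iglv1, Iglv2 and Iglv3.

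The size of the difference followed the level of the segment. Of segments with a mean of 4 to 5, 3 of 36 rose, Ighv3-1 among them, and the median was 0.12. From 5 to 6 it was 14 of 38 (0.25), from 6 to 7 16 of 26 (0.42) and from 7 to 8 11 of 13 (0.65). At 8 and above it was 4 of 4 (1.01). Over all genes the share that rose was 1.0% at 4 to 5 and 6.47% at 8 and above. Over the 117 segments, which share libraries and scale, level and difference had a Spearman rho of 0.84. The shrunken scale pulls differences of low genes towards 0, and the part of this in the gradient was not tested. Across chains, the difference in log2 of the summed back-transformed values was 0.37 for Ighv, 0.57 for Igkv and 1.05 for Iglv.

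**Figure D3:**
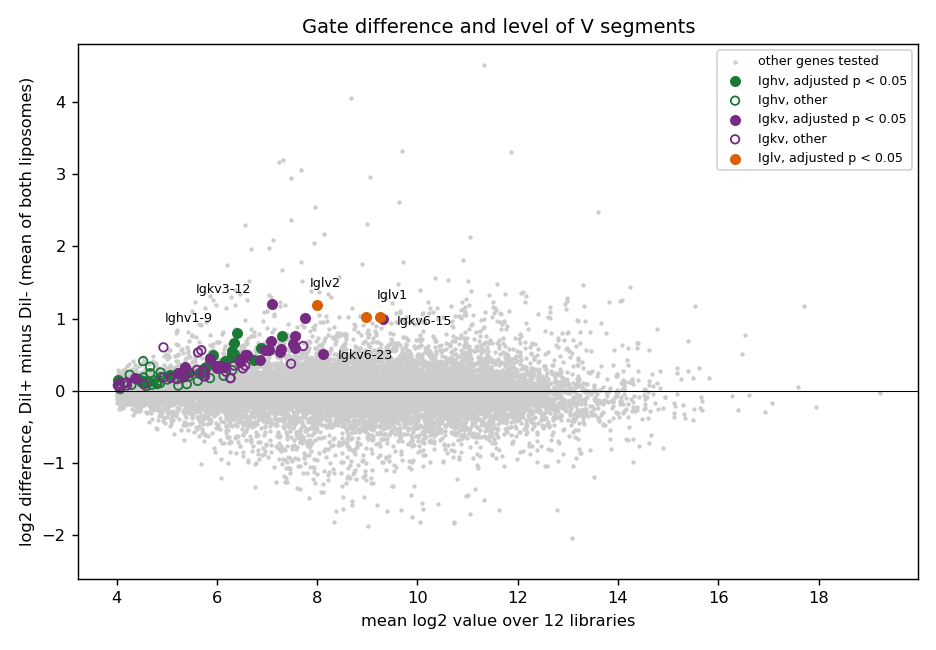
Log2 difference between DiI-positive and DiI-negative cells, mean of both liposomes, against mean log2 value over 12 libraries; grey points are the other genes tested, filled circles V segments at an adjusted p under 0.05 and open circles the other V segments. All V segments lie above 0, from 0.03 (Ighv4-1) to 1.20 (Igkv3-12).

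Under each liposome alone, fewer segments passed. After empty liposomes all 117 differences were positive, with a median of 0.28 (0.004 for all genes). By limma 13 segments rose (11.1%, against 1.32% of all genes) and none fell (1.62% of all genes). The DiI-positive and DiI-negative libraries did not overlap in 86 segments, all higher, against 12.3% of all genes higher and 14.5% lower. Ighv3-1 (4.18 against 3.94) and Igkv4-70, which met the level only through DiI-positive values, are among the 117 and the 86. Ighv3-1 is also 1 of the 13. The 5 largest rises were Igkv3-12 (1.52 ± 0.35), Iglv3 (1.20 ± 0.28), Iglv2 (1.18 ± 0.21), Igkv8-21 (1.10 ± 0.22) and Igkv1-117 (0.86 ± 0.20), with limma adjusted p from 0.014 to 0.045. This count was 5 and 3 without empty DiI-positive replicate 1 or 2. It was 0, 1 and 2 with empty DiI-negative replicate 1, 2 or 3 omitted, and 6, 6 and 8 with the like curcumin DiI-negative replicates omitted. Without curcumin DiI-positive replicate 3, which enters through the shared spread, it was 25.

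After curcumin liposomes 114 of 117 differences were positive, with a median of 0.25 (-0.003 for all genes). By limma, 4 segments rose (3.42%, against 1.41% of all genes): Iglv2 (1.19 ± 0.21, adjusted p = 0.014), Igkv12-89 (1.03 ± 0.24, 0.040), Igkv8-21 (0.93 ± 0.22, 0.048) and Ighv10-1 (0.49 ± 0.09, 0.017). None fell, against 1.67% of all genes. The gates did not overlap in 39 segments, all higher, against 9.88% of all genes higher and 10.7% lower. Ighv3-1 and Igkv4-70, which met the level only through DiI-positive values, are among the 39. Iglv2, Igkv8-21 and Ighv10-1 passed under both liposomes. The 3 segments not higher in DiI-positive cells, Ighv1-59 (-0.03), Igkv4-92 (-0.01) and Ighv4-1 (-0.01), were near 0 and were chosen by their sign. The count of 4 was 2 without any 1 library of the empty groups, 1 if curcumin DiI-positive replicate 2 or curcumin DiI-negative replicate 1 was omitted, and 2 if curcumin DiI-negative replicate 2 or 3 was. It was 35 with curcumin DiI-positive replicate 3 omitted, and 0 when only the 6 libraries compared were fitted.

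Curcumin against empty liposomes changed no segment past the threshold. These comparisons use the same libraries as the gate comparisons. In DiI-positive cells limma called 0 of 117 (0.0% of all genes), the median was -0.04, and 8 segments had an unadjusted p under 0.05, 2 higher and 6 lower. This was 6.84% of the segments, near the 8.19% of all genes. The smallest p-values belonged to Igkv3-7 (-0.32 ± 0.08), Igkv12-89 (0.87 ± 0.24) and Ighv2-3 (-0.53 ± 0.16), with limma adjusted p of 0.42, 0.42 and 0.46. In Igkv3-7 the empty libraries (5.70, 5.63 and 5.73) all lay above the curcumin libraries (5.29, 5.49 and 5.31). Igkv12-89 was at 5.48, 5.34 and 5.55 after empty and at 5.71, 6.995 and 6.28 after curcumin liposomes, again without overlap. Ighv2-3 was at 4.89, 4.82 and 5.60 against 4.62, 4.51 and 4.60. The groups did not overlap in 2 segments that were higher and 6 that were lower after curcumin, against 4.93% and 5.09% of all genes.

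In DiI-negative cells limma called 0 of 117 for curcumin (0.0% of all genes), none had an unadjusted p under 0.05 (3.3% of all genes), and the median was -0.03. The smallest p-values belonged to Ighv1-15 (-0.17 ± 0.12), Igkv12-44 (-0.22 ± 0.17) and Igkv16-104 (0.15 ± 0.12), each at a limma adjusted p of 1.0. The groups did not overlap in 3 segments that were higher and 8 that were lower after curcumin, against 5.73% and 5.5% of all genes. The gate difference itself was not shown to differ between liposomes: limma called 0 of 117 for the difference of the gate differences (0.0% of all genes; smallest adjusted p = 0.999), with 4 (3.42%) at an unadjusted p under 0.05, near the 3.7% of all genes. The smallest p-values were for Igkv12-89 (1.01 ± 0.33), Igkv3-7 (-0.28 ± 0.12) and Ighv1-59 (-0.26 ± 0.11). The median of this difference was -0.04, but 0.07 without curcumin DiI-positive replicate 3, and the curcumin median in DiI-positive cells changed to 0.05 without it.

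That library stood apart. Curcumin DiI-positive replicate 3 lay below both other replicates of its group in 101 of 117 segments and above all curcumin DiI-negative libraries in 46. It was the highest of the 12 libraries for no segment, whereas replicates 1 and 2 of its group were highest for 34 and 29. B cell genes moved with it: the mean of Cd79a, Cd79b and Ms4a1 was 13.01, against 14.19 and 14.22 in the other replicates and 12.15 to 12.88 in curcumin DiI-negative cells. The plasmacytoid dendritic cell markers Siglech (11.29) and Ccr9 (10.06) were high there and in curcumin DiI-negative replicate 3 (11.48 and 10.27), and at most 9.08 and 8.54 in the other 10 libraries. The conventional dendritic cell genes Zbtb46 (10.97), Xcr1 (10.09) and Flt3 (12.22) were also higher there than in the other replicates of its group. Those replicates were at most at 8.998, 7.92 and 10.465. Clec9a, Cd209a, Clec10a and Itgax of the same list were higher there too, whereas H2-Ab1 was lower (17.73 against 18.03 and 17.95). Of the other plasmacytoid markers, Bst2, Tcf4 and Cox6a2 were higher there than in these replicates, and Ly6d was lower (11.75 against 12.78 and 12.48). The summed Kupffer cell markers of this library (15.96) were the highest of the 12 libraries. The part of these cells in the V values was not tested.

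Between replicate libraries a few segments were high in a single library. The median SD within groups was 0.14 for the segments and 0.20 for all genes, but this differed by level. It was 0.09 against 0.13 at a mean of 4 to 5, 0.25 against 0.25 at 7 to 8, and 0.416 against 0.205 (4 segments) at 8 and above. The smallest were those of Ighv4-1 (0.04), Igkv4-70 (0.04) and Igkv4-80 (0.05), all with means close to the level limit of 4. The largest were those of Igkv4-63 (0.74), Igkv6-15 (0.57) and Igkv3-12 (0.49). The highest of the 12 libraries was a DiI-positive one for 116 segments, 53 in the empty and 63 in the curcumin group. The exception, chosen after its values were seen, was Igkv4-59 with 6.95 in curcumin DiI-negative replicate 3. In 5 segments (4.27%, against 0.358% of all genes) the highest library exceeded the second highest by 1 or more on the log2 scale, and all 5 peaks were in DiI-positive libraries.

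In curcumin DiI-positive replicate 1, Ighv1-9 reached 8.05, against 6.74 and 6.67 in the other replicates of the group, 6.25 to 6.63 in empty DiI-positive and 5.90 to 6.12 in DiI-negative cells. Its share of the summed heavy V level was 8.5% there and at most 4.26% elsewhere. Igkv6-15, whose gap of 0.99 fell just short of 1, was also highest there, with 24.9% of the summed kappa V level against at most 13.7% elsewhere. The IgA constant gene Igha had its highest value in the same library, 12.71, against 4.88 to 7.60 in the other 11. These V segments and Igha were thus high together in 1 of 12 libraries.

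In curcumin DiI-positive replicate 2, Igkv4-63 reached 7.17, with 4.83 and 4.50 in the other replicates of the group and 4.47 to 5.12 in the remaining libraries. Ighv14-3 reached 6.16 there, against 4.64 to 4.90 in the other 11. Ighv3-8 was also highest there (5.07 against at most 4.32), as were Igkv14-111 (7.50 against 6.14 to 6.95) and Igkv12-89 (6.995, with 6.28 in replicate 3 of the group and 5.28 to 5.71 elsewhere). The same library had the highest Jchain (9.11 against 5.80 to 8.40), the gene of the joining chain of IgM and IgA polymers, and the second highest Ighg2b (8.48). Its Igha (5.76) was the lowest of the DiI-positive libraries. Among other genes known from plasma cells, Fkbp11, Irf4 and Tnfrsf13b were also highest there. Mzb1, Sdc1, Derl3, Prdm1, Xbp1, Creld2 and Pou2af1 were highest in other libraries. The log2 summed level of the plasma cell markers was 11.52 there and 11.57 in curcumin DiI-positive replicate 1.

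In empty DiI-positive replicate 1, Igkv15-103 reached 7.09 and Ighv7-1 5.98. The next highest was empty DiI-positive replicate 2 for both (6.01 and 4.90), and the other 10 libraries were at 5.28 to 5.76 and 4.25 to 4.53. Empty DiI-positive replicate 2 held the peaks of Igkv3-12 (8.75 against at most 7.85) and Ighv1-72 (7.51 against at most 6.79). Ighv1-72 is the heavy segment known from antibodies to the hapten NP in C57BL/6 mice. In empty DiI-positive replicate 3, Ighv2-3, named after its values were seen, was at 5.60 against at most 4.89, and Ighg2b, the IgG2b constant gene, at 10.59 against 5.78 to 8.48 in the other libraries. At a gap of 0.5 or more there were 12 such segments (10.3%, against 3.12% of all genes), 2, 2 and 1 with their peak in empty DiI-positive replicates 1 to 3 and 2 and 5 in curcumin DiI-positive replicates 1 and 2. None had its peak in a DiI-negative library, but nearly all segments were higher in DiI-positive cells. With each value taken less the median of its chain in that library, the 12 largest gaps ran from 1.75 (Igkv4-63) down to 0.50 (Igkv1-117). Igkv4-59 then had its peak in curcumin DiI-negative replicate 3 (gap 0.80), Igkv3-12 reached a gap of 1.09 and Igkv15-103 fell short of 1 (0.97). Whether heavy and light segments high in the same library came from the same cells was not tested.

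**Figure D4:**
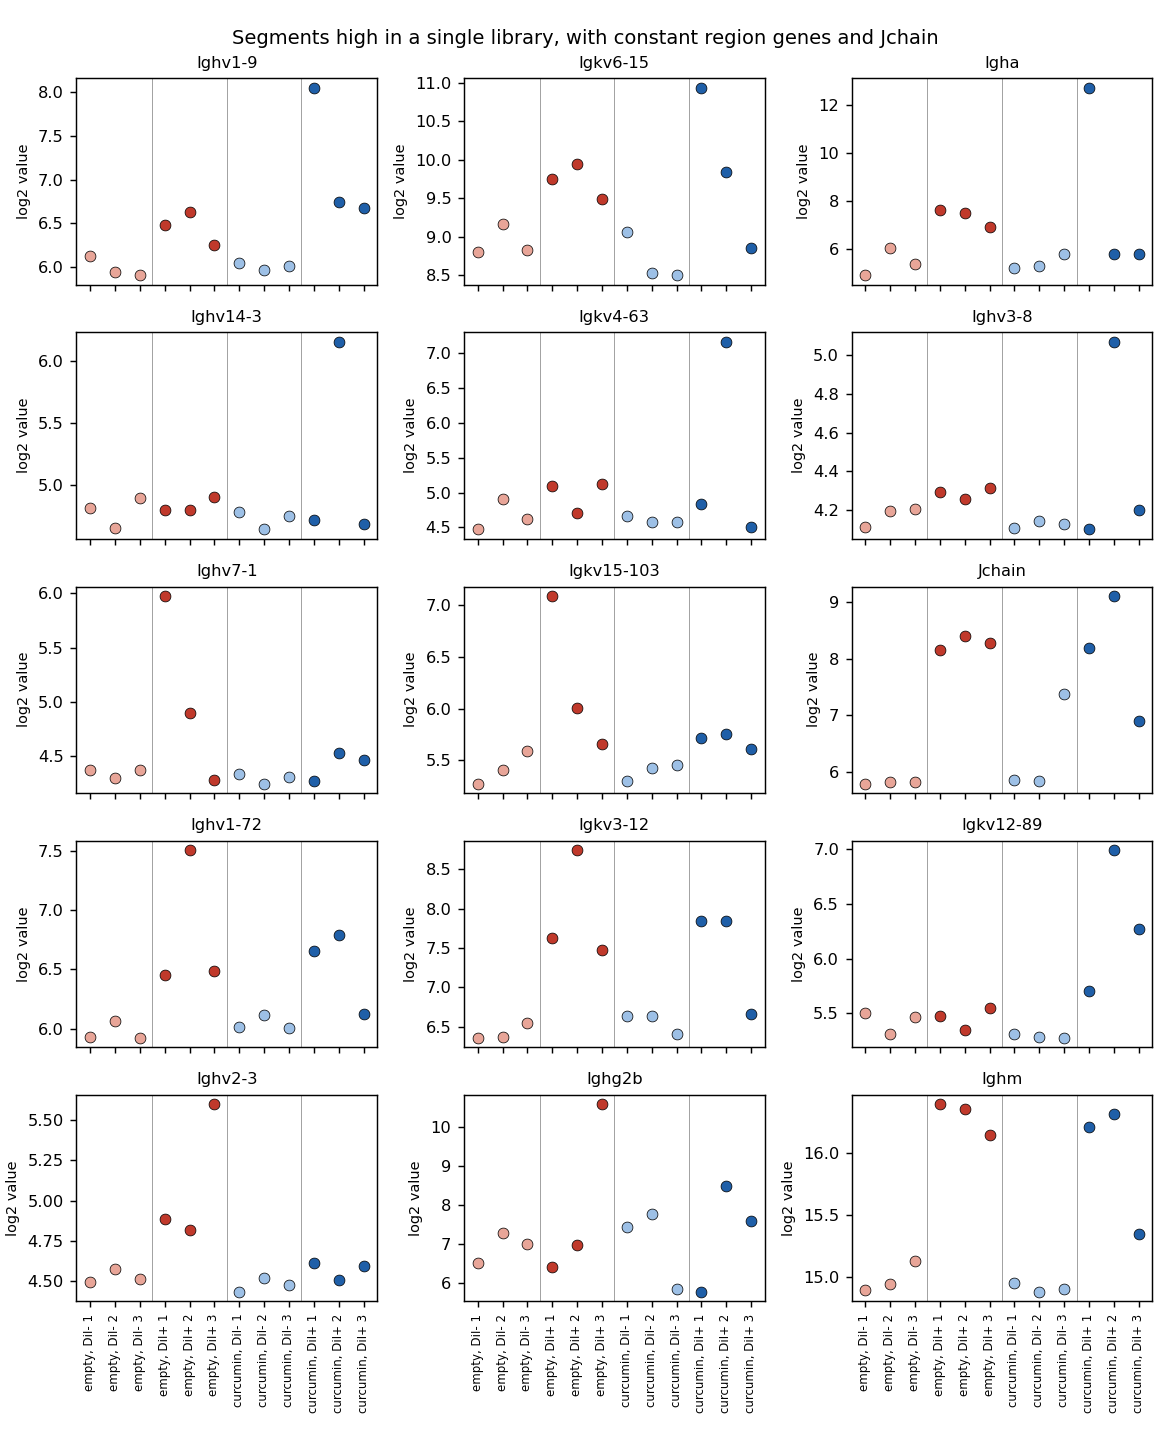
Log2 value in each of the 12 libraries (points, coloured by group) of 11 V segments with a peak in a single library, of the constant genes Igha, Ighg2b and Ighm, and of Jchain; each panel has its own axis, which does not start at 0. Ighv1-9, Igkv6-15 and Igha peak in curcumin DiI-positive replicate 1, and Ighv14-3, Igkv4-63, Ighv3-8, Igkv12-89 and Jchain in curcumin DiI-positive replicate 2.

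Among the light chain segments described here, the lambda share of the summed V level was larger in DiI-positive cells. Kappa rows below the level limit and the kappa segments left out by name are not in the sum. As a share of the summed back-transformed Igkv and Iglv values, Iglv made up 25.4%, 24.0% and 23.6% in empty DiI-positive and 16.2%, 17.9% and 19.2% in empty DiI-negative replicates 1 to 3. After curcumin it was 23.2%, 25.3% and 19.1% against 18.9%, 17.8% and 17.3%. The gates did not overlap after curcumin, and curcumin DiI-positive replicate 3 lay within the empty DiI-negative range. The constant genes did not show this: Iglc1 to Iglc3 made up 32.3% to 34.0% of the light chain constant sum in empty DiI-positive and 31.9% to 34.1% in empty DiI-negative cells, and 29.9% to 32.2% against 32.7% to 33.9% after curcumin. Igkc, Iglc1, Iglc2 and Iglc3 rose by 1.17 ± 0.20, 1.08 ± 0.23, 1.17 ± 0.23 and 1.05 ± 0.18 (limma adjusted p from 0.0036 to 0.011). The differences of the 3 lambda segments (1.02 to 1.19) were thus close in size to those of the constant genes. Of the 59 kappa segments, Igkv3-12 alone had a larger difference than Igkc. The part of the shrunken scale in the V share was not tested.

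**Figure D5:**
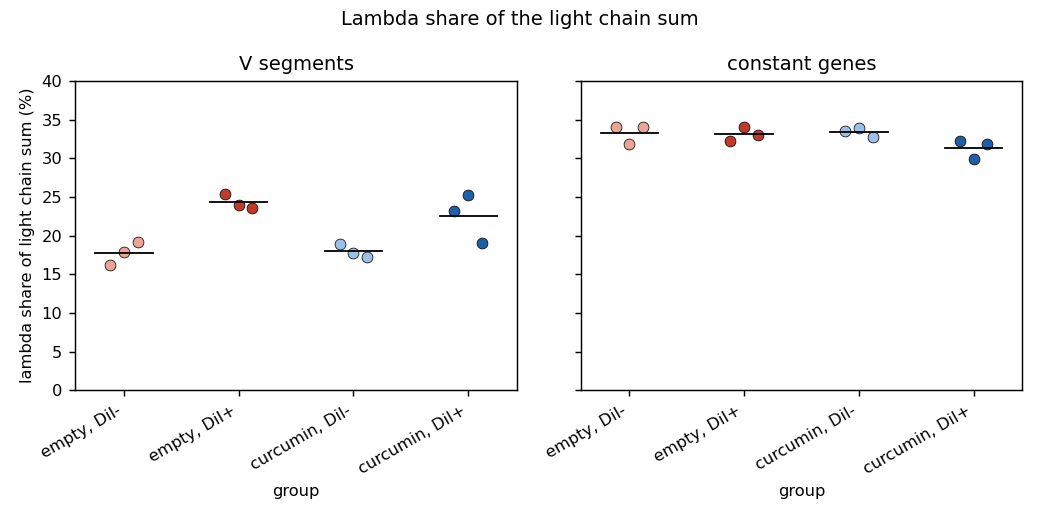
Lambda share (%) of the summed light chain values in each library (points) and its mean per group (lines), for V segments (left) and constant genes (right). DiI-positive libraries lie at 19.1% to 25.4% and DiI-negative libraries at 16.2% to 19.2% for V segments, and all libraries lie between 29.9% and 34.1% for constant genes.

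Family shares within a chain are given in the same way. Ighv1 held 44.8% to 49.4% of the summed heavy V level over the 12 libraries, and Ighv5 12.3% to 13.6%. Ighv3 held 7.9% to 9.1% in empty DiI-positive and 6.5% to 6.9% in empty DiI-negative cells, and 7.3% to 9.3% against 6.5% to 7.5% after curcumin. Of the kappa sum, Igkv6 held 22.9% to 37.0%, with its highest value in curcumin DiI-positive replicate 1, where Igkv6-15 peaked. Igkv8 held 19.4% to 20.3% in empty DiI-positive and 16.9% to 18.3% in empty DiI-negative cells, but 16.6% to 18.4% against 16.3% to 17.6% after curcumin. Igkv4 held a smaller share in empty DiI-positive (6.9% to 8.2%) than in empty DiI-negative cells (9.4% or more). After curcumin its shares overlapped, at 6.7% to 9.3% against 9.2% to 11.8%. Igkv4 is a family of low level, and the part of the shrunken scale in these family shares was not tested.

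Position in the locus was taken from GRCm38. The 55 heavy segments lie on the minus strand of chromosome 12, from 113578504 to 116000461, with Ighv5-2 nearest to and Ighv1-85 farthest from Ighm. Their per-length level and distance from Ighm had a Spearman rho of 0.22, with medians of 6.28 in the near and 6.90 in the far part of the locus, and 9 of 27 and 10 of 28 rose. The 59 kappa segments lie on chromosome 6 from 67609713 to 70699067, with Igkv3-2 nearest to Igkc. There rho was -0.19, the medians were 7.74 and 7.09, and 15 of 29 near and 11 of 30 far segments rose. Kappa segments on the plus strand, the strand of Igkc, numbered 22 with 12 rises, and those on the minus strand 37 with 14 rises. The segments of a locus share libraries, so these are descriptions of 117 values from 12 libraries.

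B cell genes moved with the V segments. All 13 B cell genes listed rose over both liposomes (median 1.14), among them Cd79a (1.25 ± 0.23), Cd79b (1.24 ± 0.22), the CD20 gene Ms4a1 (1.20 ± 0.19), the B cell transcription factors Pax5 (0.97 ± 0.20) and Ebf1 (1.09 ± 0.13), Cd22 (1.13 ± 0.22) and Blk (1.27 ± 0.19), with limma adjusted p from 0.0006 to 0.0092. The log2 of the summed level of the 7 defining B cell markers was 16.09 to 16.42 in empty DiI-positive and 14.89 to 15.15 in empty DiI-negative cells, and 15.18 to 16.40 against 14.38 to 15.03 after curcumin. The mean of the 3 lambda segments less the mean of Cd79a, Cd79b and Ms4a1 was -4.78 to -4.55, -4.59 to -4.53, -4.72 to -4.55 and -4.64 to -4.17 in the same 4 groups. Relative to these B cell genes the group means of the lambda segments were thus no higher in DiI-positive cells (-4.67 against -4.56 and -4.65 against -4.45). Heavy and kappa segments, at median differences of 0.21 and 0.32, differed less between the gates than these B cell genes did. The shrunken scale understates differences of low genes. The part of B cell content in the V differences was not tested.

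Of 12 constant genes 9 were tested and 7 rose: Ighm (1.17 ± 0.14), Ighd (1.24 ± 0.23), Ighg3 (0.53 ± 0.13), Igkc and the 3 lambda genes. Igha (2.29 ± 0.98, limma adjusted p = 0.16) and Ighg2b (0.66 ± 0.69, limma adjusted p = 0.59) did not pass. Apart from the library with the peak, Igha was at 5.76 to 7.60 in DiI-positive and 4.88 to 6.01 in DiI-negative cells. Ighg2b, apart from its 2 highest libraries, was at 5.78 to 7.59 in DiI-positive and 5.86 to 7.76 in DiI-negative cells. Of 9 genes of marginal zone and follicular B cells 8 were tested and 6 rose: the complement receptor Cr2 (1.04), Fcer2a (1.07), Cd1d1 (0.83), Cd55 (1.36), Cxcr5 (1.32) and Ighd. Of 7 genes known from B-1 cells none rose and Tppp3 fell by 1.00.

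Of 12 plasma cell genes 11 were tested. Jchain (2.09 ± 0.35), the chaperone Mzb1 (1.21 ± 0.15), Fkbp11 (0.36 ± 0.11), the coactivator Pou2af1 (1.06 ± 0.19) and Tnfrsf13b (0.41 ± 0.10) rose, and the secretory regulator Xbp1 fell by 0.38 ± 0.09 (limma adjusted p from 0.0007 to 0.046). Jchain was at 8.15, 8.40 and 8.28 against 5.80, 5.82 and 5.82 after empty liposomes, and at 8.18, 9.11 and 6.90 against 5.85, 5.84 and 7.37 after curcumin, where curcumin DiI-positive replicate 3 lay below curcumin DiI-negative replicate 3. The log2 summed level of the 6 defining plasma cell markers was 11.18 to 11.52 and 10.43 to 10.66 in empty DiI-positive and DiI-negative cells, and 11.09 to 11.57 and 10.60 to 10.93 after curcumin, and Tnfrsf17 was near its floor in every library (1.90 to 2.04). The part of plasma cells in the V peaks was not tested.

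Factors that act at V promoters and immunoglobulin enhancers split by direction. Of 14 genes, Pou2af1, Spib (1.04 ± 0.16), Tcf3 (0.33 ± 0.07), Ebf1 and Pax5 rose, and Spi1 (-0.40 ± 0.08) and Nfkb1 (-0.68 ± 0.08) fell. The octamer-binding factors Pou2f1 (0.55 ± 0.16, limma adjusted p = 0.051) and Pou2f2 (0.13 ± 0.11, limma adjusted p = 0.49) did not pass. Of 13 recombination genes 9 were tested and Vpreb3 alone rose (0.73 ± 0.21, limma adjusted p = 0.044). Vpreb2 and Igll1 were listed at 0 in every library, and Rag1 stood at its lowest listed value, -2.66, in all libraries but empty DiI-negative replicate 3 (-2.65). Of 6 hypermutation and switching genes 5 were tested, none rose, and the repair enzyme Apex1 fell by 0.36 ± 0.07 (limma adjusted p = 0.0066).

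Markers of other cells in the gate differed too. All 6 Kupffer cell markers rose (summed log2 level of 13.28 to 15.96 in DiI-positive and 10.84 to 12.15 in DiI-negative libraries). Of 8 conventional dendritic cell markers 5 fell, namely Zbtb46 (-1.81), Flt3 (-1.65), Cd209a (-2.03), Clec10a (-1.31) and H2-Ab1 (-0.22). Their summed levels of 17.86 to 18.09 against 18.15 to 18.48 were mostly those of the MHC class II gene H2-Ab1 (means of 17.85 and 18.07). Of 6 T and NK cell markers Trbc2, Ncr1, Nkg7 and Klrb1c fell, and of 6 plasmacytoid markers Ly6d, which B cells also express, rose. No hepatocyte marker was called among 3 tested, at summed levels of 8.78 to 10.05 against 8.22 to 9.16. Their part in the V results was not tested.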

How the data were processed

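RNA from the sorted cells was amplified by SMARTer chemistry for small inputs before Nextera XT library preparation, per the labels' protocols. The deposited values are the authors' log2 values per gene, 1 column per library. STAR 2.4.0d, DESeq2 1.8.1 and GRCm38 were used, per the submitters' processing notes; the sources used here give no read counter, annotation, transform or treatment of reads that match several genes. The values run from -3.62 to 19.4 and have the form of a shrunken (regularized) log scale, so the depth is unknown and precision is the spread between libraries. The labels hold 24 records for 12 library codes, and each code was counted as 1 library. Codes were matched to groups through the series design text.

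Symbols, gene types and coordinates came from GENCODE M21 (98.6% of rows matched). Genes with a mean of at least 4 (14227) were fitted with limma 3.58.1 in R 4.3.3, with 4 group means, 1 spread shared by all groups (residual df 8, prior df 3.51) and a variance trend. Adjusted p-values are Benjamini-Hochberg over all of these genes, with a threshold of 0.05. Nearest V genes were found by edit distance with edlib. Sums back-transform the log2 values, add them and, where stated, take log2. The comparison of gates over both liposomes was run on simulated log2 values for the 14227 genes, with 200 changed in each of 3 draws. It recovered 36.2% of changes of 0.5 and 91.5% of changes of 1, and 6.06% and 5.83% of the calls were false. Errors were drawn independently for each gene, whereas the V segments share libraries, so this does not give the reliability of the 48 calls.

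The members, lists and naming rule were chosen with earlier results of these data known. From the B cell lists, 1 gene is not reported here, and the lists and means were computed without it. Named segments are the 5 largest changes per comparison (10 over both liposomes), the 5 highest per chain and per length, the 10 with the largest gap between libraries, the 3 largest and 3 smallest SDs, 3 on either side of the level limit, every member of a family of 1 or 2, and the 3 smallest p-values where none passed. The alternatives were no filter, a minimum of 6, median centring, no trend, library weights, a replicate block, only the libraries compared, and each library left out.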

Additional observations from a re-analysis of the deposited data

How the results depend on the processing

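The direction of the gate difference was kept in every alternative: all segments tested were higher in DiI-positive cells over both liposomes, 117 of 117 or, with a minimum mean of 6, 43 of 43. No segment fell in a gate comparison, and none passed for curcumin or for the difference of the gate differences, in any setting run. Counts of rises moved. After empty liposomes the count of 13 was 7 with no filter on low values and 28 with library weights, and ranged from 0 to 25 with 1 library left out. After curcumin the count of 4 was 2 with no filter and 0 with only the libraries compared, and ranged from 1 to 35. Over both liposomes the count of 48 ranged from 25 to 76, and was 40 with no filter and 32 of 43 with the higher minimum. Replicate numbers were not treated as pairs, since not every pair passed 0.1: deviations of same-numbered DiI-positive and DiI-negative libraries correlated at 0.08, 0.00 and 0.08 after empty and 0.07, 0.03 and 0.33 after curcumin liposomes, where both libraries numbered 3 also had high Siglech and Ccr9. With a block for replicate number, shared by both liposomes and both gates, the counts were 10, 3 and 45, and 43 of the last were among the 48. Pairs of gates within a liposome were not fitted.

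As log2 of summed values in place of the median over segments, the difference after empty liposomes was 0.385 for Ighv, 0.582 for Igkv and 1.158 for Iglv, after curcumin 0.350, 0.550 and 0.948, and over both 0.368, 0.566 and 1.053. For Iglv the curcumin difference was -0.234 in DiI-positive cells and the difference of the gate differences -0.210. With 1 library left out, the median difference ranged from 0.240 to 0.297 after empty liposomes, 0.196 to 0.345 after curcumin, 0.240 to 0.316 over both, -0.109 to 0.045 for curcumin in DiI-positive cells, -0.037 to -0.004 in DiI-negative cells and -0.095 to 0.067 for the difference of the gate differences. The 5 segments with a gap of 1 were 12 at a gap of 0.5 and 1 at a gap of 2. The causes of these shifts were not tested. Without read numbers the limit set by depth cannot be stated.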
